A study of Mus musculus with 4 samples.

Results

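The 40 genes described here encode the ligands, receptors, SMAD proteins, antagonists and latent binding proteins of TGF-beta and BMP signaling, together with the Id genes that BMP signals act on. They were chosen by symbol from the 19742 genes named on the array, and any non-control probe whose gene name in the files is one of these symbols was taken. All 40 genes had a probe, with 65 probes of 41174 and 101 spots in all, and 19 genes had more than 1 probe.

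TGF-beta, activin and BMP ligands bind pairs of type I and type II receptor kinases. The receptors phosphorylate SMAD2 and SMAD3 for TGF-beta and activin, or SMAD1 and SMAD5 for BMPs, and these join SMAD4 and act on genes in the nucleus, while SMAD6 and SMAD7 hold the signal back. In fat cell biology TGF-beta and activin are known as inhibitors of adipocyte differentiation, and several BMPs are known to commit mesenchymal cells to the adipocyte lineage.

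The cells were 3T3-L1, a mouse preadipocyte line that turns into adipocytes when confluent cultures are given insulin, dexamethasone and IBMX. All 4 cultures received that induction medium on day 0 together with an additive, and RNA was taken on day 2. The control was 0.1% DMSO, and the treatments were 100 ug/ml bilberry extracts, which are rich in anthocyanidins, 100 nM delphinidin and 100 nM cyanidin. There was 1 Agilent array with 1 dye per condition, all on 1 slide, so the differences have no replicate check and conditions were not tested against each other. The labels call the cells adipocytes and give a treatment up to a later day than the day 2 harvest. In bulk RNA, fewer cells of a type and less RNA per cell cannot be told apart.

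All values are log2 signals relative to the 75th percentile of their own array, so 0 is a fairly bright probe and a negative value a dimmer one. The error printed with a log2 ratio is the scanner software's own estimate for the spots. For bright spots it was 0.20, from the software's 10% term, and it does not cover differences between cultures. A gene was called higher or lower when its brightest probe changed more than 2-fold and was well above background on at least 1 of the arrays compared. Where the dimmer array was not well above background, only a lower bound of the fold could be given.

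The arrays differed most with bilberry extracts. Before scaling, its 75th percentile lay at 576, against 861 with DMSO, 1009 with delphinidin and 1016 with cyanidin. On the bilberry array the 10 spike-in control RNAs were higher than on the DMSO array by a median of 0.96 on the log2 scale. They did not move alike there, with single changes of 0.10 to 1.25. The changes ran from -0.10 to 0.15 with delphinidin and from -0.10 to 0.20 with cyanidin. The spike-in scale rests on medians and is less certain for bilberry extracts. With the spike-ins as the scale, each log2 ratio of bilberry extracts over DMSO shifts by -1.53, that of delphinidin by 0.26 and that of cyanidin by 0.24. All 33 members measured with bilberry extracts were then below 0, so each direction given below for bilberry extracts is relative to the bulk of the signal on that array. The preadipocyte and fibroblast markers were well above background on all 4 arrays in 6 of 6 cases and the adipocyte markers in 7 of 8, without Lep. Of the markers of other cells, 2 of 5 macrophage and blood markers were (Cd68 and Csf1r, at -5.86 to -3.50), 0 of 4 endothelial markers and 1 of 4 epithelial markers (Krt8, at -5.29 to -3.49). Summed over each list, the macrophage level ran from -3.41 to -3.03 and the epithelial level from -4.69 to -3.29 over the 4 arrays, and their part in the results was not tested. Krt8 was past 2-fold higher in all 3 treatments (1.17, 1.80 and 1.06) and Csf1r with bilberry extracts (1.16). Past 2-fold with bilberry extracts, 1 of 6 preadipocyte and fibroblast markers was lower (Thy1, -1.20). So was 1 of 7 adipocyte markers tested (Adipoq, -1.07), and 0 of either list were higher. Short of 2-fold, Dlk1 (0.31), Col1a1 (0.42), Pparg (0.15), Cebpa (0.50), Plin1 (0.39), Lpl (0.02) and Cfd (0.80) were above DMSO. Pdgfra (-0.21), Pdgfrb (-0.12), Vim (-0.10) and Fabp4 (-0.95) were below it. Cfd was past 2-fold higher with delphinidin (1.15) and cyanidin (1.75). The preadipocyte and fibroblast list had medians of -0.11, -0.28 and -0.26 with bilberry extracts, delphinidin and cyanidin. The adipocyte list had 0.15, 0.20 and 0.32.

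Of the 40 members, 31 were well above background on all 4 arrays, 2 more (Chrd and Ltbp2) on all but the delphinidin array, where their spots were marked as outliers, and 6 on none. With bilberry extracts, 1 of 33 members tested was higher than with DMSO (Tgfb1) and 3 were lower (Tgfb2, Inhba and Grem1), where 4.77% of all genes tested were higher and 6.97% lower. With delphinidin, 0 of 32 were higher and 1 was lower (Tgfb2), against 1.73% and 2.8% of all genes. With cyanidin, 0 of 33 were higher and 1 was lower (Grem1), against 1.25% and 2.43% of all genes. The 3 comparisons share the DMSO array, so a low or high spot there enters all of them.

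The median log2 ratio of the members was 0.20 with bilberry extracts, -0.16 with delphinidin and -0.15 with cyanidin, against 0.17, -0.02 and 0.01 over all genes measured. Bilberry extracts left 63.6% of the members within 0.5 log2 of the DMSO array, against 59.6% of all genes. For delphinidin the shares were 83.9% and 85.8%, and for cyanidin 87.9% and 87.2%. The members' shares stood near those of all genes, and the description below is of single genes.

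**Figure D1:**
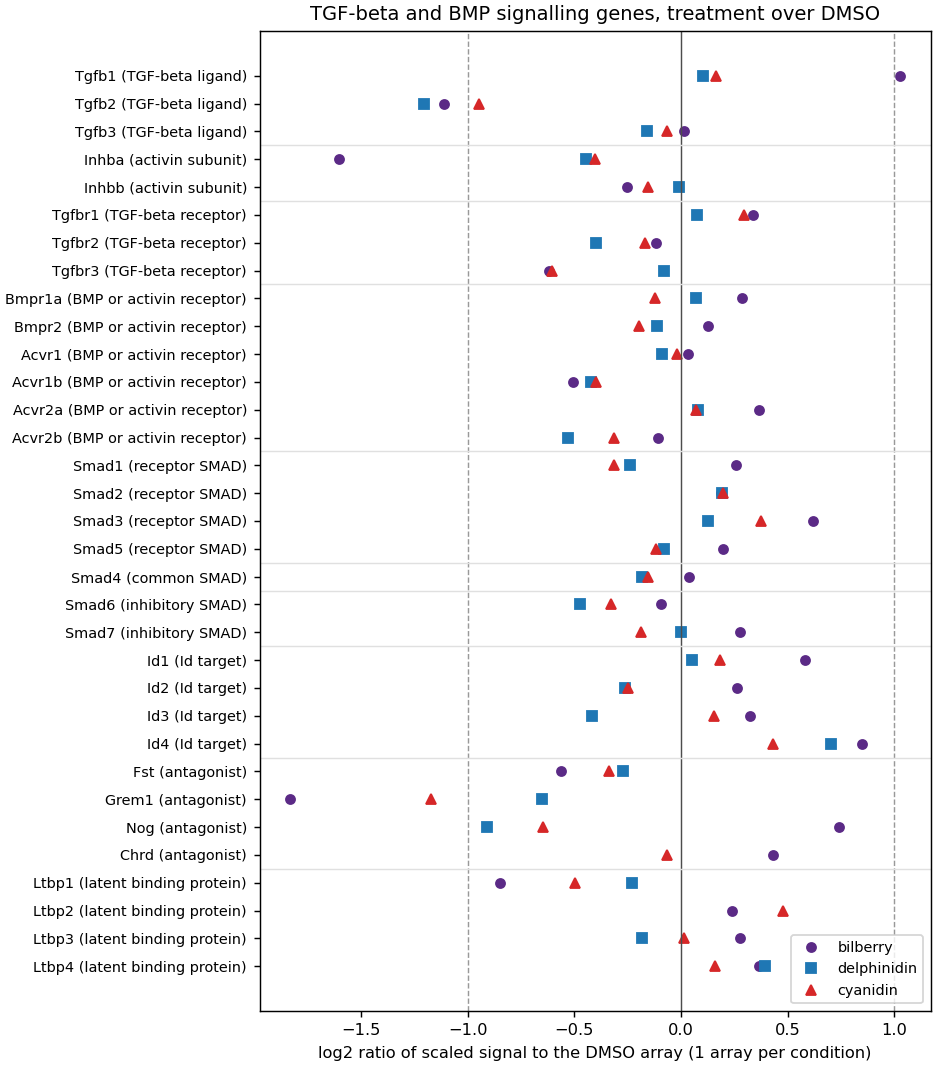
Log2 ratio of scaled signal to the DMSO array (horizontal axis) for the 33 measured members, by role, with bilberry extracts (circles), delphinidin (squares) and cyanidin (triangles); 1 array per condition, so there are no error bars, and the dashed lines mark 2-fold. Past the left line lie Inhba (-1.60), Grem1 (-1.83) and Tgfb2 (-1.11) with bilberry extracts, Tgfb2 with delphinidin (-1.20) and Grem1 with cyanidin (-1.17). Tgfb2 with cyanidin (-0.95) and Nog with delphinidin (-0.91) lie just short of it. Tgfb1 at 1.03 with bilberry extracts is the one point past the right line.

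The promoters of the 4 genes past 2-fold are printed here because they are the members whose signal moved most. They are the 250 bases before the RefSeq start site on GRCm38.p6, read 5′ to 3′ on the gene's strand. Capitals mark CAGAC, the SMAD-binding element, GGCGCC, another motif that SMADs bind, GCCGNCGC, an element of BMP-responsive genes, and TATAAA, the consensus box of core promoters.
Tgfb1: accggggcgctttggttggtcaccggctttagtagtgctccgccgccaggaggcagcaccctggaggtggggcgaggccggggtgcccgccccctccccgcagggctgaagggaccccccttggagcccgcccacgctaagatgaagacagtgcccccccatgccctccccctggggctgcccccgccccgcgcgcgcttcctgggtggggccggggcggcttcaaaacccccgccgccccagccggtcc
Tgfb2: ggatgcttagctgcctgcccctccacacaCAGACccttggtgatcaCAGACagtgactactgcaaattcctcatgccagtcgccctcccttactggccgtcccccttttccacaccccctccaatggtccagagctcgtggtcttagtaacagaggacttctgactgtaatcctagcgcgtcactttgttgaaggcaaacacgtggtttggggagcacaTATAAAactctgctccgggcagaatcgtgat
Inhba: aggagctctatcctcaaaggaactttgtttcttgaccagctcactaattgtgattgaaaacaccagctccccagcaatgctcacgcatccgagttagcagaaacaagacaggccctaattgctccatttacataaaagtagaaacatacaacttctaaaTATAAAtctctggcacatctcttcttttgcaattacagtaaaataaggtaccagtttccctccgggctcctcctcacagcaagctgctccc
Grem1: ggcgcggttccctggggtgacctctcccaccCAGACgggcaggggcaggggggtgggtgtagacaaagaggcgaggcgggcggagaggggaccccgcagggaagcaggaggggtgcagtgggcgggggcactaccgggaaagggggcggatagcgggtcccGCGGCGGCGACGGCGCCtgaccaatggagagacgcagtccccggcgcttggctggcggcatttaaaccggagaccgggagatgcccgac

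The Tgfb1 window (chr7:25686752-25687001, plus strand) was 75.2% G and C and held none of these motifs. The Tgfb2 window (chr1:186705990-186706239, minus strand) was 53.6% G and C, with CAGAC at 221 and 204 bases and TATAAA at 31 bases before the start. The Inhba window (chr13:16011601-16011850, plus strand) was 43.2% G and C, with TATAAA at 91 bases before the start. The Grem1 window (chr2:113758649-113758898, minus strand) was 72% G and C. It held CAGAC at 219 bases, GCCGNCGC at 89 and 83 bases and GGCGCC at 78 bases before the start, each of the last 3 sharing letters with its neighbour.

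Both strands were searched. Of the 40 members 29 had a promoter in the table, and 12 of them (41.4%) held CAGAC, against 42.2% of all 32851 promoters. GGCGCC was in 7 of the 29 (24.1%) and 9.59% of all, and GCCGNCGC in 9 (31.0%) and 6.89%. Apart from the open letter N, both motifs hold only G and C. The G and C content of the members' promoters was not compared with that of all promoters. Its part in these shares was not tested, and no excess of either motif is claimed. TATAAA was in 10.3% of the members' promoters and 12.4% of all. The palindrome GTCTAGAC was in 0 of the 29 and in 0.167% of all. A match is a run of letters and not evidence of binding.

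Tgfb1, the founding ligand of the family, was measured by 10 spots of 1 probe (chr7:25413618-25413677 on mm8). Its log2 level was -0.34 ± 0.04 with DMSO (SD, 9 spots), 0.68 ± 0.03 with bilberry extracts, -0.24 ± 0.02 with delphinidin and -0.18 ± 0.01 with cyanidin (SD, 10 spots each). All 10 spots of the bilberry array lay above every spot of the other arrays, by at least 0.91 over DMSO. The level was 2.04-fold higher with bilberry extracts, a log2 ratio of 1.03 ± 0.02 (SE over spots), and with delphinidin and cyanidin the ratios were 0.10 and 0.16. The spots show how well the array measured the probe and say nothing of how cultures vary. Tgfb1 ranked 447 from the top of 12126 genes with bilberry extracts, just past the 2-fold line. It was at 0.77 and 0.95 with 2 other background corrections and at -0.50 with spike-in scaling.

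Tgfb2, a ligand of the same receptors, was lower with bilberry extracts and delphinidin. Its log2 level was -0.02 with DMSO, -1.13 with bilberry extracts, -1.22 with delphinidin and -0.97 with cyanidin, on 1 spot per array (chr1:188324443-188324502 on mm8, minus strand). The 3 treated arrays lay together and the DMSO array apart. The log2 ratios were -1.11 ± 0.21 (2.16-fold lower), -1.20 ± 0.20 (2.3-fold lower) and -0.95, the last of them 1.93-fold and short of the 2-fold line. With delphinidin it was the lowest member, at rank 152 from the bottom of 12643 genes. The spot lies in a band of rows in the middle of the array where more genes were called. In that band 12.8% of all genes were called with bilberry extracts, 6.35% with delphinidin and 5.64% with cyanidin, against 10.9%, 3.04% and 2.09% outside it. With bilberry extracts Tgfb2 was at -0.59 under normexp background correction on all spots and at -0.98 under normexp fitted without marked spots, both short of 2-fold. With delphinidin it was at -0.94 under spike-in scaling, also short of it. Tgfb2 has no other probe, and the part of the band in its value was not tested.

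Tgfb3, the last of the 3 TGF-beta ligands, differed little from DMSO, with log2 ratios of 0.01, -0.16 and -0.06 for bilberry extracts, delphinidin and cyanidin. With bilberry extracts 1 of the 3 ligands was thus higher, 1 lower and 1 near DMSO, on the scale of the 75th percentile.

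Inhba encodes the subunit of activin A, and its log2 level was the highest with DMSO. It was 2.80 with DMSO, 1.20 with bilberry extracts, 2.36 with delphinidin and 2.40 with cyanidin (chr13:15817688-15817747 on mm8). The bilberry array stood apart from the other 3. The log2 ratio was -1.60 ± 0.20 with bilberry extracts, 3.04-fold lower, at rank 256 from the bottom of 12126 genes. With delphinidin and cyanidin it was -0.44 and -0.40, not past 2-fold. This spot too lies in the band of rows. Inhbb, the subunit of activin B, had log2 ratios of -0.25, -0.01 and -0.16. The first of them turned to 0.66 under normexp background correction on all spots.

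The BMP ligands were dim. Bmp2, Bmp3, Bmp4, Bmp5 and Bmp7 had no probe well above background on any array. Bmp6 had 1 probe well above background with delphinidin, at -6.22, which gives a bound of 1.00-fold over DMSO and 1.25-fold over cyanidin. Bmp2, Bmp4 and Bmp7 had 10 spots each, so this does not rest on a lone spot, and at most 2 kept spots of Bmp4 or 1 of Bmp7 were well above background on an array. Bmp7 kept spots were at -7.25 with DMSO and -5.88 with bilberry extracts, where none of the 10 spots was well above background.

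**Figure D2:**
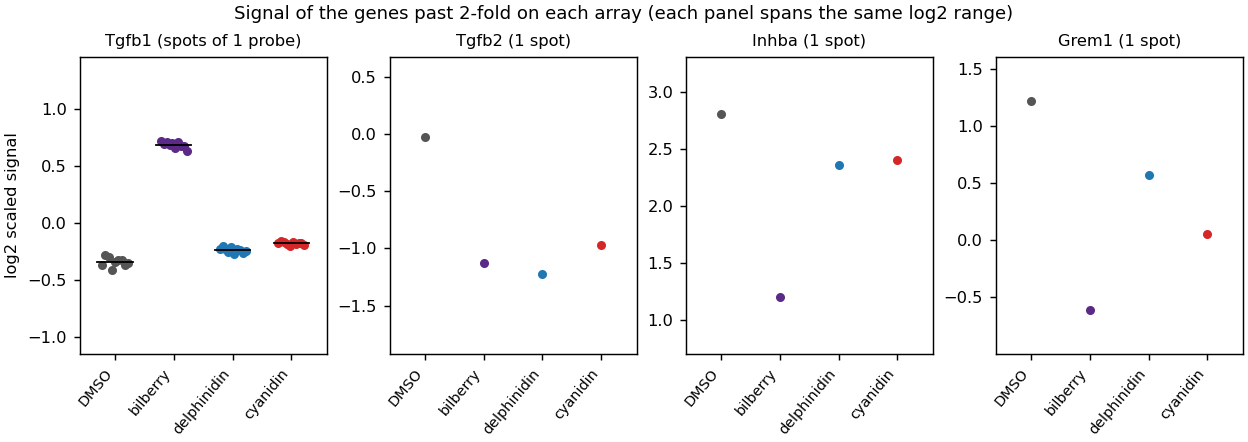
Log2 scaled signal (vertical axis) of the 4 members past 2-fold on the DMSO, bilberry, delphinidin and cyanidin arrays; points are spots, the lines in the Tgfb1 panel are means, and each panel spans the same log2 range. Tgfb1 was high on the bilberry array only (0.68 against -0.34 to -0.18), Tgfb2 was high on the DMSO array only (-0.02 against -1.22 to -0.97), and Grem1 and Inhba were lowest on the bilberry array (-0.61 and 1.20).

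No receptor passed 2-fold at its brightest probe in the main scaling. Among the TGF-beta receptors, the type II receptor Tgfbr2 had log2 ratios of -0.12, -0.40 and -0.17 for bilberry extracts, delphinidin and cyanidin. The co-receptor Tgfbr3, betaglycan, had -0.62, -0.08 and -0.61. Its log2 levels were 0.29 with DMSO and 0.21 with delphinidin, and -0.33 and -0.31 with bilberry extracts and cyanidin, so the arrays fell into pairs, short of 2-fold apart.

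Among the BMP and activin receptors, Acvr1, a type I receptor for BMPs, had log2 ratios of 0.03, -0.09 and -0.02. Acvr1b, the type I receptor for activin, had -0.51, -0.42 and -0.40. Acvr2b, a type II receptor for activin, had -0.11, -0.53 and -0.31. With bilberry extracts Acvr2b was above DMSO under both normexp fits, by 0.13 without marked spots and by 1.26 on all spots, which is past 2-fold. Bmpr1b, a type I receptor for BMPs, was too dim to be called well above background on the 4 arrays.

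For 4 receptors the direction with bilberry extracts depended on the probe. Tgfbr1, the type I receptor for TGF-beta, had log2 levels of 1.16, 1.497, 1.23 and 1.45 (DMSO, bilberry extracts, delphinidin, cyanidin) at its brighter probe (chr4:47435649-47435708 on mm8). At the dimmer probe (chr4:47428126-47431784) they were -4.27, -4.84, -4.26 and -4.76. The log2 ratio with bilberry extracts was thus 0.34 ± 0.20 at the brighter probe and -0.57 ± 0.29 at the dimmer one, and with cyanidin it was 0.29 and -0.49.

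Acvr2a, a type II receptor for activins and BMPs, had log2 levels of -1.24, -0.87, -1.16 and -1.17 at its brighter probe (chr2:48722110-48722169), in the same order of arrays. At another probe (chr2:48723813-48723872) the levels were -2.36, -3.29, -2.68 and -3.13. The ratios with bilberry extracts were 0.36 ± 0.20 and -0.93 ± 0.22, the widest disagreement among the members. A further probe of Acvr2a was not well above background.

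Bmpr1a, a type I receptor for BMPs, had log2 levels of 1.07, 1.35, 1.14 and 0.94 at its brighter probe (chr14:33240245-33240304), and -3.25, -3.66, -3.23 and -3.28 at the dimmer one (chr14:33243596-33243655). The ratios with bilberry extracts were 0.28 ± 0.20 and -0.40 ± 0.22. Bmpr2, the type II receptor for BMPs, had 3 probes, with ratios of 0.12, 0.25 and -0.53 with bilberry extracts. Its levels were 2.30, 2.42, 2.18 and 2.10 at the brightest probe (chr1:59821964-59822023) and -0.59, -1.12, -0.87 and -1.29 at the dimmest (chr1:59819627-59819686). In all 4 genes the dimmest measured probe gave the lower ratio. No direction is given here for these receptors.

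Over the 15 members with more than 1 measured probe, the probes of a gene differed by a median of 0.27 log2 with bilberry extracts. The median was 0.19 over 14 members with delphinidin and 0.14 over 15 with cyanidin. The signs were opposed by more than the errors in 4 genes with bilberry extracts, 0 with delphinidin and 1 with cyanidin. For delphinidin over cyanidin the median was 0.20 over 14 members, and the signs were opposed in 1, Tgfbr1 (-0.22 at the brighter probe and 0.50 at the dimmer).

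**Figure D3:**
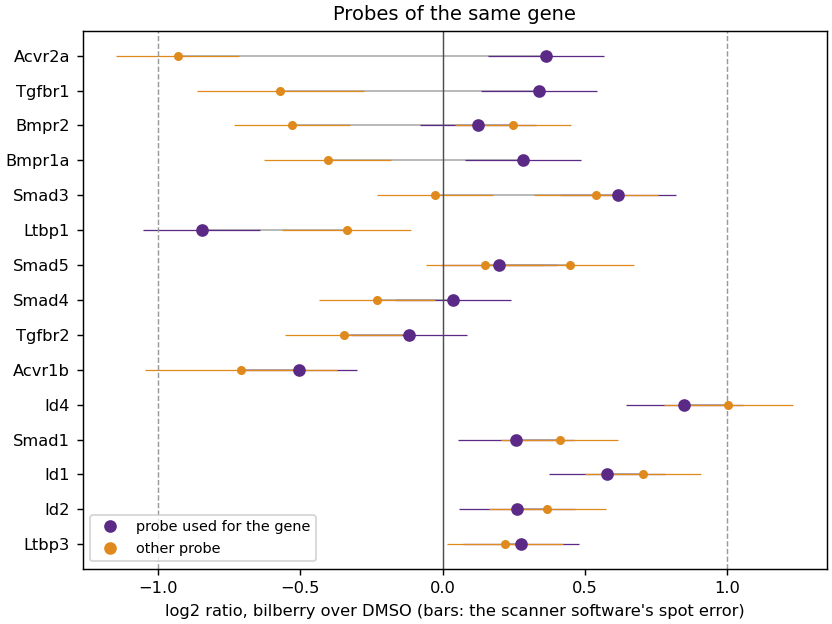
Log2 ratio of bilberry extracts over DMSO (horizontal axis) at each measured probe of the 15 members with more than 1 such probe; large points are the probe used for the gene, small points its other probes, and bars the scanner software's spot error. The probes of Acvr2a (-0.93 and 0.36), Tgfbr1, Bmpr2 and Bmpr1a lie on opposite sides of 0, and those of the genes at the bottom lie together.

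No SMAD gene passed 2-fold at its brightest probe in the main scaling. Among the receptor-regulated SMADs, Smad1, a carrier of BMP signals, had log2 ratios of 0.26, -0.24 and -0.32 with bilberry extracts, delphinidin and cyanidin. Smad2, a carrier of TGF-beta signals, had 0.19 in each. Smad3, its partner in TGF-beta signaling, had 0.62, 0.13 and 0.37 at its brightest probe, while its other probes gave -0.03 and 0.54 with bilberry extracts.

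Smad5, like Smad1 a carrier of BMP signals, had log2 ratios of 0.20, -0.08 and -0.12 at its brightest probe (chr13:56751818-56751877 on mm8). Its levels there were 3.20, 3.399, 3.12 and 3.08 with DMSO, bilberry extracts, delphinidin and cyanidin. A dim probe (chr13:56747265-56747324) read -3.92, -3.47, -2.92 and -3.94, so the delphinidin array was higher at this probe than the cyanidin array by 1.01 ± 0.21, past 2-fold. The other 2 probes of the gene gave 0.04 and 0.03 for that difference. All 3 spots lie in the band of rows, where 4.08% of all genes were called between these arrays, against 1.096% outside it. Smad4, the common partner of the receptor SMADs, had 0.04, -0.19 and -0.15 over DMSO. Its other probe gave -0.23, -0.20 and -0.19, so the sign with bilberry extracts depended on the probe, within the errors, and it also turned in 5 of 10 alternatives. The inhibitory SMADs, which TGF-beta and BMP signals themselves induce, were not past 2-fold either, with -0.09, -0.47 and -0.33 for Smad6 and 0.27, 0.00 and -0.19 for Smad7. Under normexp on all spots Smad7 was at 1.86 with bilberry extracts, past 2-fold, and Smad6 at 0.61. Smad6 was also just above 0 under normexp without marked spots and under quantile normalization, at 0.02 and 0.01.

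The Id genes encode inhibitors of basic helix-loop-helix factors and are known as early BMP targets. All 4 were above DMSO with bilberry extracts, by log2 ratios of 0.26 to 0.85, and none passed 2-fold at the probe used. With spike-in scaling all 4 were below 0, and under normexp on all spots Id3 was at -0.16 and Id4 at 1.35. Id1 lay 0.41 above the median of all genes, Id2 0.09, Id3 0.15 and Id4 0.68. Id1 had 0.58, 0.05 and 0.18 with bilberry extracts, delphinidin and cyanidin. A brighter Id1 probe was not used because it had no value on the delphinidin array, and it gave 0.71 with bilberry extracts and 0.19 with cyanidin. Id2 had 0.26, -0.26 and -0.25, and its other probe gave 0.37, -0.58 and -0.27.

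Id3 had log2 ratios of 0.32 with bilberry extracts, -0.42 with delphinidin and 0.16 with cyanidin. Id4 was above DMSO in all treatments, with levels of -2.26, -1.41, -1.56 and -1.83 (DMSO, bilberry extracts, delphinidin, cyanidin) at its brighter probe (chr13:48275236-48275295 on mm8). These give ratios of 0.85 ± 0.21, 0.70 ± 0.21 and 0.43. At the dimmer probe (chr13:48275748-48275807) the levels were -4.17, -3.17, -3.80 and -3.94, and the ratio with bilberry extracts was 1.01 ± 0.23, just past 2-fold. Both probes gave the same order of the 4 arrays.

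The secreted antagonists bind ligands and keep them from receptors. Grem1, gremlin, which binds BMPs, was lower with bilberry extracts and cyanidin. Its log2 level was 1.22 with DMSO, -0.61 with bilberry extracts, 0.57 with delphinidin and 0.05 with cyanidin (chr2:113549909-113549968 on mm8, minus strand), so all 3 treated arrays lay below the DMSO array. The log2 ratios were -1.83 ± 0.20 (3.56-fold lower), -0.65 and -1.17 ± 0.20 (2.25-fold lower). With bilberry extracts it was the lowest member and ranked 167 from the bottom of 12126 genes, and with cyanidin it ranked 117 from the bottom of 12596. With cyanidin it was at -0.93 under spike-in scaling, short of 2-fold. Its spot does not lie in the band of rows.

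Nog, noggin, another BMP antagonist, was dim and read -4.04, -3.30, -4.95 and -4.69 with DMSO, bilberry extracts, delphinidin and cyanidin. The bilberry array was thus above DMSO by 0.74 and the other treated arrays below it by -0.91 and -0.65, none past 2-fold. With bilberry extracts the ratio was 1.96 under normexp background correction on all spots and -0.79 under spike-in scaling. Chrd, chordin, had ratios of 0.43 and -0.06 with bilberry extracts and cyanidin, and the first of them was 2.00 under normexp on all spots and -1.10 under spike-in scaling. Fst, follistatin, which binds activin, had -0.56, -0.27 and -0.34.

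The latent TGF-beta binding proteins hold TGF-beta in the matrix. Ltbp1 had log2 ratios of -0.85, -0.23 and -0.50 at its brighter probe and -0.34, -0.51 and -0.52 at the other. Ltbp2 had 0.24 with bilberry extracts and 0.48 with cyanidin. Ltbp3 had 0.28, -0.19 and 0.01, and Ltbp4 0.36, 0.39 and 0.16. None of the 4 passed 2-fold in the main scaling. With bilberry extracts Ltbp2, Ltbp3 and Ltbp4 turned below 0 under normexp on all spots, and Ltbp2 also under quantile normalization.

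Delphinidin and cyanidin are anthocyanidins that differ in an additional hydroxyl group on the B ring of delphinidin. They were given at the same dose and harvested on the same day, and this is the 1 pair of compounds that can be compared. Delphinidin over cyanidin, 0 of 32 members were higher and 0 lower, against 1.22% and 1.21% of all genes. At the probe used for each gene, the log2 differences ran from -0.57 for Id3 to 0.53 for Tgfbr3, with a median of -0.03, the same as over all genes. Of the members, 90.3% were within 0.5 log2, against 94.4% of all genes.

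Id3 read 1.39 with delphinidin and 1.97 with cyanidin, a difference of -0.57 ± 0.20. Its spot lies in the band of rows, and with the band left out the lowest member was Nog at -0.26. Grem1 read 0.57 and 0.05, a difference of 0.52 ± 0.20, and Tgfbr3 had 0.53 ± 0.20. These are the 3 members past 0.5 log2 at the probe used. With 1 array per compound the interval of the difference between cultures is unknown, so neither a difference nor a like action is shown. Bilberry extracts were dosed in another unit, and their values stand beside those of the compounds with no comparison of potency.

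Outside the 40 members, 129 further genes of the pathway were listed, of which 127 had a value. With bilberry extracts 3 of 101 tested were higher and 5 lower, with delphinidin 1 of 102 was higher and 2 were lower, and with cyanidin 0 of 101 were higher and 4 lower. Delphinidin over cyanidin, 0 of 99 were higher and 1 was lower. These shares stand beside the percentages of all genes given above.

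Of the 22 other ligands 12 were tested with bilberry extracts and 0 were called. Lefty2, an inhibitory ligand, was well above background with DMSO alone, at -4.60, and was at least 3.82-fold lower with delphinidin and at least 3.84-fold lower with cyanidin. With bilberry extracts its bound was 1.83-fold, since the lowest measurable signal was higher on that array. The Lefty2 spot lies in the band of rows, and the part of the band in its value was not tested. Of the 10 other receptors 8 were tested in each comparison and 0 were called.

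Of the 32 extracellular regulators 25 were tested with bilberry extracts, with 2 higher and 1 lower. The tolloid-like proteases Tll1 and Tll2 were at least 2.15-fold and 2.94-fold higher with bilberry extracts, both from a DMSO signal not well above background. Dcn, the matrix proteoglycan decorin, which binds TGF-beta, read 5.82 with DMSO and 4.29 with bilberry extracts, and its ratios were -1.52, -0.87 and -0.59. Itgb8, an integrin subunit that releases latent TGF-beta, was at least 2.15-fold lower with cyanidin. The spots of Tll2 and Itgb8 lie in the band of rows as well.

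Of the 26 SMAD co-factors and ubiquitin ligases 25 were tested with bilberry extracts, with 0 higher and 1 lower. This was Ep300, a histone acetyltransferase that works with SMADs, at -1.01 with bilberry extracts, -0.23 with delphinidin and -0.63 with cyanidin.

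Of the 26 TGF-beta target genes 25 were tested with bilberry extracts, with 1 higher and 3 lower and a median log2 ratio of 0.20. With delphinidin 0 of 26 were higher and 1 was lower, and with cyanidin 0 and 2. Timp3, an inhibitor of metalloproteinases, read -1.81, -3.16, -2.29 and -2.98 with DMSO, bilberry extracts, delphinidin and cyanidin, with ratios of -1.35, -0.48 and -1.17.

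Tagln, an actin-binding protein of contractile cells, read 2.39, 3.71, 2.14 and 1.61 in the same order. Its ratios were 1.32, -0.25 and -0.78, so the bilberry array was above DMSO and the other treated arrays below it. Edn1, endothelin, was well above background with DMSO alone and was at least 2.28-fold lower with delphinidin and at least 2.29-fold lower with cyanidin. Snai2, a transcription factor of mesenchymal cells, had -1.20 with bilberry extracts. Postn and Pdgfb were also past 2-fold in 1 comparison each and fall outside the 4 genes a list that are described, and their spots lie in the band of rows.

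Of the 20 BMP target genes 12 were tested with bilberry extracts and 13 in each other comparison, and 0 were called in any. Their median log2 ratios were -0.11, -0.23 and -0.28 with bilberry extracts, delphinidin and cyanidin.

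**Figure D4:**
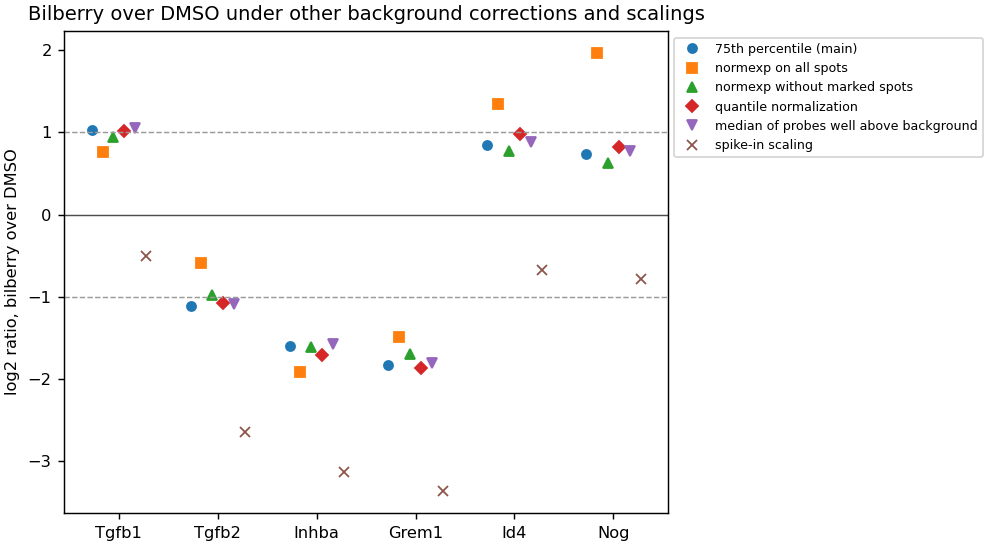
Log2 ratio of bilberry extracts over DMSO (vertical axis) for the 4 members past 2-fold and for Id4 and Nog, under the main scaling and 5 other background corrections or scalings (symbols); dashed lines mark 2-fold. Inhba stayed between -1.91 and -1.57 and Grem1 between -1.86 and -1.48 apart from spike-in scaling, which placed all 6 genes below 0, Tgfb1 at -0.50 among them.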

How the data were processed

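RNA of 3T3-L1 cells was measured on 4 one-colour Agilent arrays. The authors deposited the scanner software's spot files (Feature Extraction 9.5.1.1 per the file headers), and the intensity used is the software's processed signal, already background-subtracted and detrended. A deposited value table holds the same intensity.

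Signals were scaled to the 75th percentile of the non-control spots of their array, then taken to log2. Controls were left out, as were spots marked by the software for uneven or outlying signal or background. Spots of a probe were averaged, and a gene was read at its brightest probe, with a value on all 4 arrays where it had one. A probe counted as well above background when over 0.5 of its kept spots did. Names came from the files, and for non-members also from RefSeq symbols of GRCm38.p6. Probe coordinates are on mm8 as in the files, and the annotation of exons was not used here. For a probe too dim on the lower of 2 arrays, the bound took the lowest signal well above background on that array, or the probe's own signal where higher.

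Python 3.11.15, pandas 2.3.3 and limma 3.58.1 (normexp, offset 50) were used, and the scripts were tested on simulated data. Alternatives were 2 normexp fits, 3 scalings, 2 detection filters, marked spots kept, any probe, a band of rows left out, 1.5-fold and the value table.

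The members and lists were chosen with earlier results of these data known. Values are given for each member past 2-fold or with probes that disagree about 2-fold, or about 0 by more than their errors, and for the others by ratio. Genes past 2-fold in the lists other ligands, other receptors, extracellular regulators, SMAD co-factors and ubiquitin ligases, TGF-beta target genes and BMP target genes are named, at most 4 a list by size. Some list genes are not reported here. Marker lists were preadipocyte and fibroblast, adipocyte, macrophage and blood, endothelial and epithelial. The number of arrays limits the precision.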

Additional observations from a re-analysis of the deposited data

Results flagged for a closer look

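Bmp2 had 2 spots that the software marked as outliers and that were well above background on the bilberry array, at log2 levels of -1.67 and -4.14. The other 8 spots lay between -7.79 and -6.83 with none well above background. On the DMSO array the 10 spots lay between -8.36 and -8.21, and none was well above background either. Bmp4 had 1 such marked spot on the cyanidin array, at -4.59, where the highest of the kept spots was at -6.43. Marked spots enter no comparison.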

How the results depend on the processing

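Of the 96 counts recomputed under alternatives, 78 kept within 1.5 times of the reported count and 18 did not. The 78 include the counts from the value table, which holds the same intensity and could not differ, and counts of 0 that stayed 0. A change from 3 lower to 2, as with bilberry extracts under both normexp fits without Tgfb2, also counted as kept. The 78 is therefore not a measure of how stable the calls were. Members called higher with bilberry extracts numbered 5 under normexp on all spots (Acvr2b, Smad7, Id4, Nog and Chrd, without Tgfb1) and 0 under normexp fitted without marked spots or under spike-in scaling, which turned Tgfb1 to -0.50. They numbered 2 with no filter on detection (Bmp7 added) or with any probe (Id4 added), and 4 at 1.5-fold. Spike-in scaling gave 28 members lower with bilberry extracts, 0 with delphinidin (Tgfb2 at -0.94) and 0 with cyanidin (Grem1 at -0.93), and under it the median of all genes with bilberry extracts was -1.36. Leaving out the band of rows removed the spots of Tgfb2 and Inhba and gave 1 lower with bilberry extracts (Grem1) and 0 with delphinidin. At 1.5-fold, 5 were lower with bilberry extracts, 3 with delphinidin and 4 with cyanidin, and 1 was higher with delphinidin (Id4). With no filter 1 (Bmp6) was higher with delphinidin over DMSO and 1 over cyanidin, and with any probe 1 (Smad5) was higher over cyanidin. Tgfb2 with bilberry extracts was short of 2-fold under both normexp fits, at -0.59 on all spots and -0.98 without marked spots. Under normexp on all spots, 13 of the 33 members measured with bilberry extracts were above 0 and 20 below. In the main scaling 22 were above 0 and 11 below. Grem1 with bilberry extracts stayed past 2-fold in each alternative run, from -3.36 to -1.48, and Inhba from -3.13 to -1.57 where its spot was kept. The causes were not tested. No paired analysis was possible because each condition had 1 array.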
